A study of Mus musculus with 39 samples.

Results

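The HCN channels described here are Hcn2, Hcn3 and Hcn4, taken as the 3 rows of a deposited count table of 24045 transcription starts whose Entrez gene number maps to those symbols. In the table they carry the gene numbers 15166, 15168 and 330953. The table gives, for each start, the reads counted in 21 chromatin immunoprecipitation (ChIP-seq) libraries of cerebellar granule cells of C57Bl/6J mice at postnatal days 7, 12 and 21 (P7, P12, P21). H3K4me3 was mapped in 3 libraries at P7, 2 at P12 and 2 at P21, and H3K27me3 in 5 libraries at P7, 4 at P12 and 5 at P21. The labels name no allele, transgene or treatment in any group. P7 cells were progenitors of granule cells taken from a Percoll gradient, whereas at P12 and P21 nuclei were stained for NeuN and NeuroD1, and those positive for both were sorted. Chromatin of P7 was also sonicated for less time, so a comparison with P7 is also one of isolation methods and of the cells these yield, and the sources of difference cannot be told apart. P21 against P12 has no such difference. In these bulk samples a mark on fewer cells and less of it per cell cannot be told apart either.

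HCN channels are cation channels that open when the membrane becomes more negative, and they carry the inward current known as Ih. Cyclic AMP binds to a domain in the cytoplasmic tail and, in Hcn2 and Hcn4, eases their opening. Hcn2 is the form found widely in brain, Hcn4 is the main pacemaker channel of the sinoatrial node and is strong in thalamus, and Hcn3 responds little to cyclic AMP. H3K4me3 marks starts that are active or poised, and H3K27me3 is the mark that Polycomb repressive complex 2 lays down on silenced genes. A start that carries both marks is called bivalent, a state known from genes of development that are held for later use, and the timing of granule cell development by such starts is the question the study's title names.

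On GRCm38.p6, the assembly of the submitters' mm10 build, Hcn2 lies on the plus strand at chr10:79716634-79736108 and Hcn4 on the plus strand at chr9:58822949-58863175. Hcn3 lies on the minus strand at chr3:89146775-89160284, and its curated transcript starts at position 89160157. The promoters of Hcn2 and Hcn4, from 250 bases before to 50 bases after the start, are shown because the H3K27me3 change below centres on these starts. The sequences are RefSeq's, plus strand and 5′ to 3′, at chr10:79716384-79716683 and chr9:58822699-58822998, with capitals marking each GGGCGG, the GC box, which in both promoters reads as its complement CCGCCC.
Hcn2: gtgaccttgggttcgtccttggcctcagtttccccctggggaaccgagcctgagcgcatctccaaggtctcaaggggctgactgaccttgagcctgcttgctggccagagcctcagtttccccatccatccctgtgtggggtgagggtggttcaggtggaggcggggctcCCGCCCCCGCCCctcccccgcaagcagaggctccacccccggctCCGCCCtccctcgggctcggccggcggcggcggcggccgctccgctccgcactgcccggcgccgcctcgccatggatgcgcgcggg
Hcn4: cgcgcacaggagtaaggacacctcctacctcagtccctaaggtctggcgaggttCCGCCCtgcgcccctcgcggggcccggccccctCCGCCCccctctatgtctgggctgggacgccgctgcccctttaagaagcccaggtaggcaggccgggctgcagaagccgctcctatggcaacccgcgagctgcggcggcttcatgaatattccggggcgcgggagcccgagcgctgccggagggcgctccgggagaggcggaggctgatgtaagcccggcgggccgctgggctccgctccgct

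Both promoters were rich in G and C. In the Hcn2 promoter 72.3% of bases were G or C, and in the Hcn4 promoter 71.7%, against a median of 52.7% over the 32851 promoters of the table. CpG, the dinucleotide that CpG islands are dense in, occurred 26 times in the Hcn2 promoter and 31 times in the Hcn4 promoter, with a median of 7 over all promoters. GGGCGG, searched on both strands, occurred 3 times in Hcn2, at -80, -74 and -36 from the start, and 2 times in Hcn4, at -196 and -163. It was present in 35.7% of all promoters. Other motifs were also searched on both strands. The E-box CAGCTG, which 16.3% of all promoters hold, was in neither window. The same held for the E-box CAGATG, held by 17.2% of promoters, and for the letters CCAAT, held by 37.4%. It also held for the TATA box spelled as TATAAA, in 13.6% of promoters, and for TTGGCA, part of the nuclear factor I site, in 14.1%.

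Total counts over the table ran between 431401 and 5653193 in the H3K4me3 libraries and between 264093 and 2035801 in the H3K27me3 libraries. H3K27me3 at P7 was more concentrated than later. The 95th percentile of starts was 22.1 to 45.0 times the median start at P7 and 5.00 to 12.9 times at P12 and P21. H3K4me3 was also more concentrated at P7, at 5.15 to 9.32 times, against at most 4.31 times at P12 and P21. The part of this in the H3K4me3 changes from P7 was not tested. In H3K27me3, the labels give the first 2 replicates of a stage 1 common input and the later ones an input each. The fit held a term for this arrangement, but no input reads entered the fit or the levels. Of the granule cell markers, Neurod1, the antigen of the sort, was listed at 0 in all 21 libraries, which is not read here as absence of a mark. The start of Rbfox3, which encodes NeuN, averaged 18.6 CPM of H3K4me3 at P21 and 14.9 CPM at P7. Gabra6, a GABA receptor subunit of mature granule cells, averaged 45.3 CPM of H3K4me3 at P21 and 18.6 CPM at P7. Of 8 granule cell markers tested in H3K4me3, however, 2 were called higher and 4 lower at P21 against P7, and their summed level was 383 to 386 CPM in the P21 libraries and 483 to 665 CPM in the P7 libraries. All 7 progenitor markers were called lower in the same comparison, where 14.4% of all starts were. Levels are edgeR's CPM, the reads at a start as a share of the library's total scaled by TMM, the trimmed mean of M-values, in units of 1e6. Starts were compared with edgeR's quasi-likelihood test, adjusted by Benjamini-Hochberg over all starts tested, at a threshold of 0.05. The labels do not say that libraries came from separate animals, so p-values measure only the spread between these libraries, which may be technical.

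H3K27me3 was high at Hcn2 and Hcn4 at P7 and lower at both at P21, most of all at Hcn2, while Hcn3 carried far fewer reads of the mark than either at P7. At P21 against P7, 2 of the 3 channels were called lower and none higher, in a comparison where 48.9% of all 18089 starts tested were called, 23.5% lower and 25.4% higher. The 2 were Hcn2, 59.6-fold lower, and Hcn4, 9.89-fold lower. At P12 against P7 the same 2 were called lower, where 36.4% of starts were called and 22.0% were called lower. At P21 against P12, Hcn2 alone was called, lower again, where 3.97% of starts were called and 3.06% were called lower.

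Hcn2 stood at 269, 381, 630, 578 and 302 CPM of H3K27me3 in the 5 P7 libraries, at 29.3, 19.4, 89.1 and 40.3 CPM in the 4 P12 libraries, and at 2.63, 2.30, 12.6, 9.69 and 6.79 CPM in the 5 P21 libraries. No library of a stage overlapped those of another, so the 3 stages stood in strict order, each lower than the one before. Its mean was 432 ± 163 CPM at P7 (SD, n = 5), 44.5 ± 30.9 CPM at P12 (SD, n = 4) and 6.81 ± 4.47 CPM at P21 (SD, n = 5). The P21 values rest on 1, 1, 13, 9 and 5 reads, so the fold is imprecise on the linear scale. Ranked within its library, Hcn2 stood at percentiles 93.7 to 96.6 of all starts at P7, 52.3 to 90.3 at P12 and 9.99 to 36.8 at P21. Its start thus stood among the most marked at P7 and below the median start in each P21 library.

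The log2 fold change of H3K27me3 at Hcn2 was -5.90 ± 0.34 (SE) at P21 against P7, with an edgeR adjusted p of 2.16e-21. By p it ranked 72 among the 18089 starts tested. At P12 against P7 it was -3.25 ± 0.29 (adjusted p 1.11e-13), and at P21 against P12 it was -2.65 ± 0.37 (adjusted p 6.18e-07). Hcn2 thus fell in both intervals, including the one between stages isolated in the same way. Within the libraries that share an input (replicates 1 and 2) the P21 against P7 value was -6.95, and within those with an input each it was -5.63. Scaling by library totals gave -4.80, where the median over all starts also moved, to 1.42, against 0.34 under TMM. Measured from that median, Hcn2 stood at -6.22 with library totals and at -6.24 under TMM. A shift common to all starts cancels in such a difference, so the closeness of these values says nothing about the scaling. With a scaling that follows the mean count, Hcn2 was at -5.59, or -5.67 from the median.

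Hcn4 stood at 265, 372, 660, 709 and 385 CPM of H3K27me3 in the 5 P7 libraries, at 36.1, 35.5, 205 and 149 CPM in the 4 P12 libraries, and at 2.63, 27.6, 90.3, 91.5 and 59.8 CPM in the 5 P21 libraries. Every P7 library was above every later one, but P12 and P21 overlapped: the shared-input libraries were low in both stages, and P21 replicate 1 held 1 read. Its mean was 478 ± 195 CPM at P7 (SD, n = 5), 106 ± 84.7 CPM at P12 (SD, n = 4) and 54.3 ± 39.02 CPM at P21 (SD, n = 5). In rank, Hcn4 stood at percentiles 93.7 to 97.1 of all starts at P7 and 74.9 to 95.2 at P12. At P21 its percentile spanned 14.5 to 93.7 with a median of 87.2, so that the start stayed well marked in most P21 libraries.

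The log2 fold change of H3K27me3 at Hcn4 was -3.31 ± 0.31 (SE) at P21 against P7 (edgeR adjusted p 6.95e-12) and -2.28 ± 0.31 at P12 against P7 (adjusted p 9.60e-08). At P21 against P12 it was -1.03 ± 0.32, which missed the threshold with an adjusted p of 0.0579. That last value passed the threshold in several other settings: without P7 replicate 2 (-1.06, adjusted p 0.0275), without P7 replicate 5 (-1.05, adjusted p 0.0156) and without P21 replicate 4 (-1.17, adjusted p 0.0485), and also in 4 settings given under the processing. The P21 against P12 value did not pass in the other 17 of 24 alternatives. Its edgeR adjusted p reached 0.427 among fits that left a library out. Within the shared-input libraries P21 against P7 was -4.35, and within the others it was -2.84. With library totals it was -2.15, and with a scaling that follows the mean count it was -2.10, both called.

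Hcn3 stood at 25.4, 11.995, 18.2, 31.5 and 40.4 CPM of H3K27me3 in the 5 P7 libraries, at 22.4, 14.5, 25.7 and 28.3 CPM in the 4 P12 libraries, and at 15.8, 6.89, 26.2, 16.1 and 21.7 CPM in the 5 P21 libraries. The 3 stages overlapped throughout. Its mean was 25.5 ± 11.1 CPM at P7 (SD, n = 5), 22.7 ± 5.98 CPM at P12 (SD, n = 4) and 17.4 ± 7.26 CPM at P21 (SD, n = 5). No comparison called it: the log2 fold change was -0.62 ± 0.31 (SE) at P21 against P7 (edgeR adjusted p 0.0959), -0.18 ± 0.31 at P12 against P7 (adjusted p 0.665) and -0.43 ± 0.33 at P21 against P12 (adjusted p 0.648). Its direction depended on the scaling, since library totals gave 0.44 at P21 against P7 (adjusted p 0.228) and 0.76 at P12 against P7 (adjusted p 0.0390). The scaling that follows the mean count gave -1.002 at P21 against P7 (adjusted p 0.00707), and without P7 replicate 3 the value was -0.74 (adjusted p 0.0280).

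**Figure D1:**
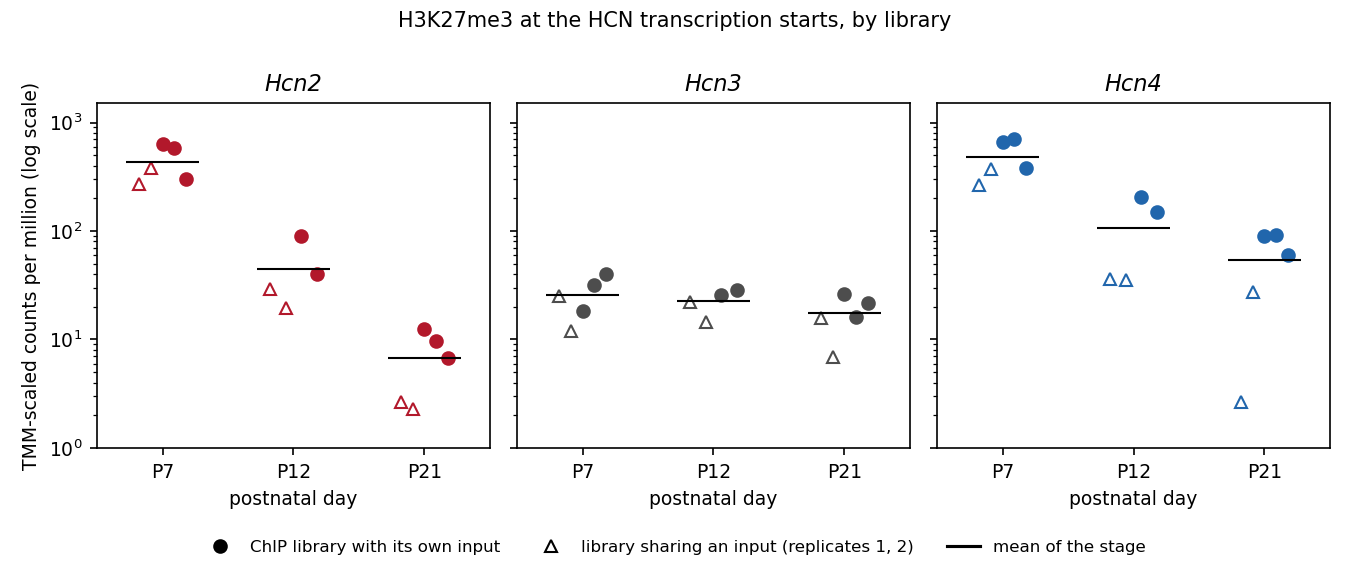
TMM-scaled CPM of H3K27me3 (log axis) at the start of each channel in every library at P7, P12 and P21. Filled circles have an input each, open triangles share one, and lines are stage means. Hcn2 mean levels are 432 CPM at P7, 44.5 CPM at P12 and 6.81 CPM at P21, Hcn4 keeps 54.3 CPM at P21, and the stages of Hcn3 overlap.

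The H3K27me3 counts of the 3 channels changed by different amounts, as their ratio within a library shows without any scaling between libraries. Such a ratio does not remove the greater concentration of H3K27me3 at P7, whose part in the changes from P7 was not tested. The log2 ratio of Hcn2 to Hcn4 in H3K27me3, with 0.5 added to each count, averaged -0.13 ± 0.18 at P7 (SD, n = 5), -1.05 ± 0.66 at P12 (SD, n = 4) and -2.41 ± 1.35 at P21 (SD, n = 5). The pair was close to equal in counts in all 5 P7 libraries, with ratios between -0.35 and 0.034. Counts of Hcn4 in both marks may depend on how reads were divided with the start of Rec114, 243 bases away. This was not tested, and it bears on the levels and ranks of Hcn4 too. In P21 replicates 2 to 5 the ratio lay between -3.17 and -2.79, and in replicate 1, with 1 read at each start, it was 0.0. The difference was -2.28 at P21 against P7 (exact two-sided permutation p 0.0317, 0.0408 after Benjamini-Hochberg over 9 ratio tests). It was -0.92 at P12 against P7 (exact p 0.0159, adjusted 0.0238), and -1.35 at P21 against P12 (exact p 0.111, adjusted 0.125). The call at P21 against P7 was lost without P7 replicate 1 or 2 (-2.24 and -2.23, adjusted exact p 0.0595 for each), and that at P12 against P7 without P7 replicate 1, 2, 3 or 4 (-0.89, -0.88, -0.91 and -0.96, adjusted exact p 0.0735 for each). Without P21 replicate 1, the P21 against P12 difference was -1.95, and its adjusted exact p was 0.0321.

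Relative to Hcn3, the H3K27me3 counts of both other channels fell from P7. Hcn3 held few reads at every stage, so these ratios also depend on how concentrated the mark is in a library. The log2 ratio of Hcn2 to Hcn3 averaged 4.05 ± 0.92 at P7 (SD, n = 5), 0.76 ± 0.68 at P12 (SD, n = 4) and -1.33 ± 0.54 at P21 (SD, n = 5), so Hcn2 held more reads than Hcn3 in every P7 and P12 library and fewer in every P21 library. Its differences were -5.38 at P21 against P7, -3.29 at P12 against P7 and -2.09 at P21 against P12. Each had an exact permutation p of 0.00794 and an adjusted p of 0.0143, and the groups did not overlap. The log2 ratio of Hcn4 to Hcn3 averaged 4.18 ± 0.85 at P7 (SD, n = 5), 1.82 ± 1.05 at P12 (SD, n = 4) and 1.08 ± 1.82 at P21 (SD, n = 5). It fell by 3.11 at P21 against P7 and by 2.37 at P12 against P7 (exact p 0.00794, adjusted 0.0143, for each). For P21 against P12 the difference was -0.74 (exact p 0.635, adjusted 0.635), and without P21 replicate 1 it was 0.058. Without P7 replicate 1 or 2 the adjusted exact p of both ratios to Hcn3 at P12 against P7 was 0.0514, with Hcn2 to Hcn3 at -3.46 and -3.10 and Hcn4 to Hcn3 at -2.57 and -2.21.

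H3K4me3 reads were counted at all 3 starts in every library, and none of the 9 comparisons of a channel passed the threshold. At P21 against P7, 0 of the 3 were called, where edgeR called 23.3% of 20748 starts (8.98% higher and 14.4% lower), and Hcn2 alone had an unadjusted p under 0.05 (0.0497). At P12 against P7, 0 of 3 were called and none had such a p, where 14.5% of starts were called (5.34% higher and 9.21% lower). DESeq2 also called 0 of 3 in both comparisons. At P21 against P12 edgeR called 0 of all 20748 starts (0%), with 206 at an unadjusted p under 0.05, and DESeq2 called 0 as well, with 50 at such a p.

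Hcn4 had the most H3K4me3 reads of the 3 in every library. It stood at 91.6, 130 and 144 CPM in the P7 libraries, at 126 and 96.4 CPM in the P12 libraries, and at 82.1 and 123 CPM in the P21 libraries. The stages overlapped, and the log2 fold change was -0.16 ± 0.23 (SE) at P21 against P7 (edgeR adjusted p 0.563) and -0.095 ± 0.25 at P12 against P7 (adjusted p 0.781). The direction of both turned positive with library totals and with the scaling that follows the mean count, again below the threshold. In rank Hcn4 stood at percentiles 90.7 to 97.7 of all starts at P21 and 77.1 to 95.5 at P7.

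Hcn2 stood at 28.2, 72.6 and 67.6 CPM of H3K4me3 in the P7 libraries, at 74.4 and 62.8 CPM in the P12 libraries, and at 65.7 and 83.4 CPM in the P21 libraries. Only P7 replicate 1, the deepest library, was low, and the other 6 lay close together. The log2 fold change was 0.56 ± 0.29 (SE) at P21 against P7 (edgeR adjusted p 0.116) and 0.41 ± 0.31 at P12 against P7 (adjusted p 0.314). Without P7 replicate 1 the P12 against P7 value was -0.043 and that of P21 against P7 was 0.13. Without P7 replicate 3 the P21 against P7 value was 0.86 with an adjusted p of 0.0494, and with library totals it was 0.80 with an adjusted p of 0.0409.

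Hcn3 stood at 71.8, 82.2 and 62.1 CPM of H3K4me3 in the P7 libraries, at 72.5 and 40.4 CPM in the P12 libraries, and at 53.3 and 52.0 CPM in the P21 libraries. Both P21 libraries were below all 3 P7 libraries, and P12 spanned the range. The log2 fold change was -0.44 ± 0.29 (SE) at P21 against P7 (edgeR adjusted p 0.222) and -0.32 ± 0.32 at P12 against P7 (adjusted p 0.443). At P21 against P12 the values of the 3 channels were 0.15 ± 0.33 for Hcn2, -0.12 ± 0.35 for Hcn3 and -0.068 ± 0.27 for Hcn4, with an adjusted p of 1.00 for each.

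**Figure D2:**
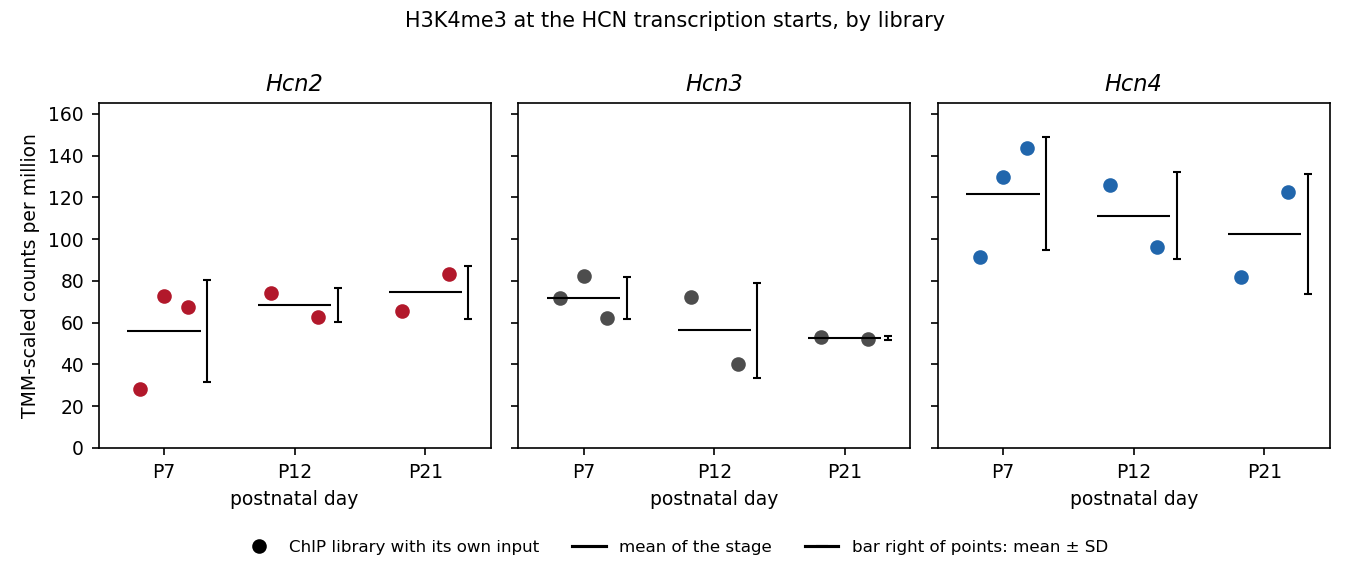
TMM-scaled CPM of H3K4me3 (linear axis from 0) at each start, by library, with the stage mean as a line and the mean ± SD as the bar on the right (n = 3 at P7, n = 2 at P12 and P21). The stages of Hcn2 and Hcn4 overlap, with P7 replicate 1 of Hcn2 low at 28.2 CPM.

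**Figure D3:**
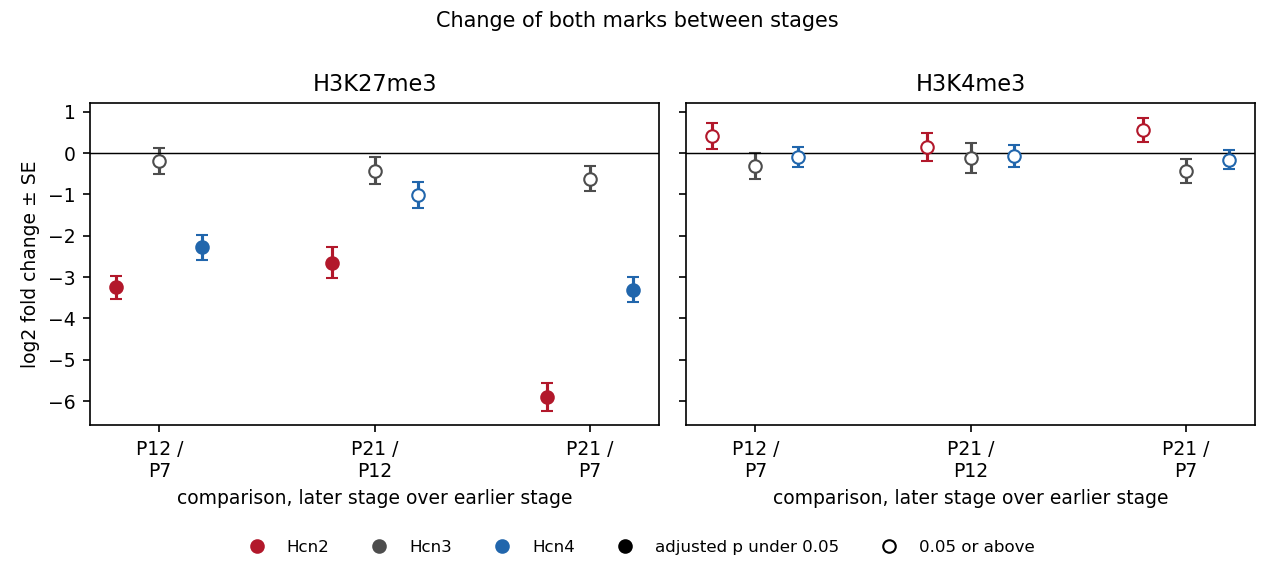
Log2 fold change ± SE of both marks for the 3 comparisons between stages, later over earlier, with filled points for an edgeR adjusted p under 0.05. Hcn2 reaches -5.90 and Hcn4 reaches -3.31 in H3K27me3 at P21 against P7, and no point of the H3K4me3 panel is filled.

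Within the H3K4me3 libraries the log2 ratio of Hcn2 to Hcn4 averaged -1.20 ± 0.45 at P7 (SD, n = 3), -0.68 ± 0.10 at P12 (SD, n = 2) and -0.44 ± 0.17 at P21 (SD, n = 2). All 4 later libraries were above all 3 P7 libraries. The ratio was not tested, since 3 against 2 libraries cannot give an exact permutation p below 0.1.

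The deposited peak intervals, called for each library on its own, gave the extent of both marks around each start. An H3K4me3 peak reached within 1 kb of the Hcn2 start and of the Hcn4 start in all 7 H3K4me3 libraries, and of the Hcn3 start in all 3 P7 libraries, 1 of 2 at P12 and 1 of 2 at P21. These peaks were 1.25 to 2.04 kb wide at Hcn2, 1.76 to 3.03 kb at Hcn4 and 1.00 to 2.05 kb at Hcn3. They were narrow, and each spanned the start.

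At Hcn2 and Hcn4 the H3K27me3 peaks were broader than the H3K4me3 peaks. Hcn2 had one in 5 of 5 libraries at P7, in 2 of 4 at P12 (replicates 3 and 4) and in 0 of 5 at P21. Its width was 5.24, 5.12, 5.16, 6.92 and 6.33 kb at P7, and 4.25 and 2.56 kb in the 2 P12 libraries. Around Hcn4 an H3K27me3 peak was present in 5 of 5 libraries at P7, in 4 of 4 at P12 and in 3 of 5 at P21 (replicates 3, 4 and 5). Its width was 9.04, 8.46, 13.74, 15.64 and 15.86 kb at P7, then 4.59, 4.58, 9.58 and 6.87 kb at P12, and 9.59, 5.21 and 12.84 kb in the 3 P21 libraries. The Hcn4 peak was thus wider than the Hcn2 peak in each of the 5 P7 libraries. Hcn3 had an H3K27me3 peak of 1.00, 1.52 and 1.81 kb in 3 of 5 libraries at P7 (replicates 1, 4 and 5) and in none of the 9 later ones.

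All H3K4me3 peaks at Hcn2 and Hcn4 lay inside the span that H3K27me3 peaks covered at P7, so both starts carried both marks at that stage in bulk. Peak lists differed in kind between libraries. At P12 and P21, the H3K27me3 lists of replicates 1 and 2 held 6432 to 8370 peaks and those of later replicates 27858 to 50222. The Hcn2 peaks at P12 and the Hcn4 peaks at P21 were all in the longer lists, whereas Hcn4 at P12 had a peak in both kinds. The H3K27me3 inputs of replicates 3 and later held between 8804 and 86149 peaks, against 256 to 310 in the shared inputs. A peak of an input reached the Hcn2 start in 2 of 4 H3K27me3 inputs at P7, 2 of 3 at P12 and 1 of 4 at P21, and the Hcn4 start in 2 of 4 at P7, 2 of 3 at P12 and 2 of 4 at P21. Without ChIP peaks that overlap such an input peak, Hcn2 kept a peak in 3 libraries at P7 and 0 at P12, and Hcn4 in 3 at P7, 2 at P12 and 1 at P21.

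**Figure D4:**
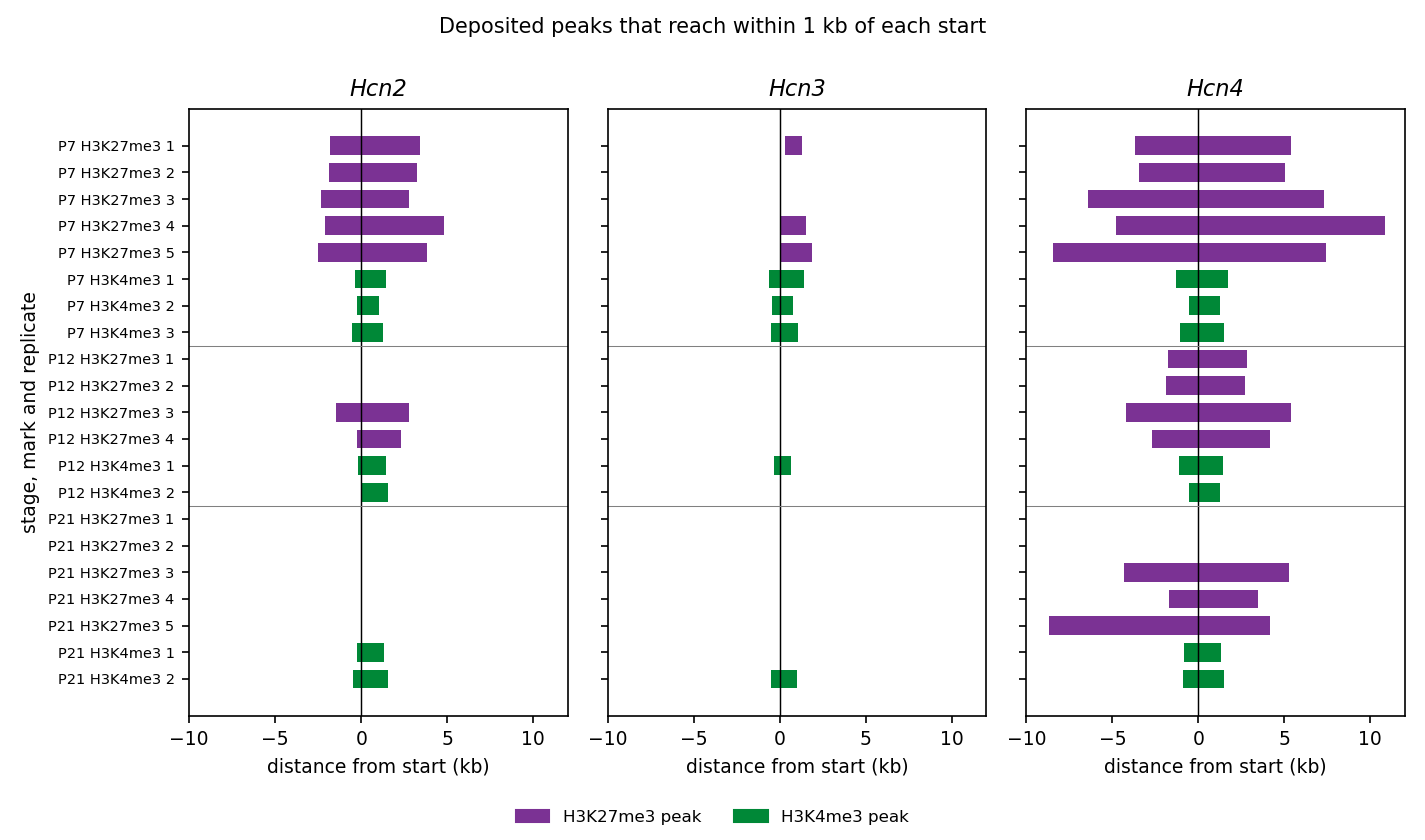
Extent in kb from the start, in the direction of transcription, of each deposited H3K27me3 and H3K4me3 peak that reaches within 1 kb of the start, with 1 row for each library at P7, P12 and P21. At Hcn2 the broad H3K27me3 peaks are in 5 of 5 rows at P7, 2 of 4 at P12 and 0 of 5 at P21, while the narrow H3K4me3 peak is in every row. At Hcn4 3 of 5 rows keep an H3K27me3 peak at P21.

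Of the nearest protein-coding starts on either side of each channel, 3 passed the H3K27me3 filter, Rec114 among them. None of these was called in that mark at P21 against P7, which for Rec114 is not read as a lack of change. Hcn4 stands head to head with Rec114, a meiotic recombination gene on the minus strand whose start is 243 bases away at chr9:58822706. The 300 bases shown for Hcn4 therefore hold both starts, and their reads cannot be told apart without knowing the counted window, which the sources used here do not give. The Rec114 start lay inside the H3K27me3 peak around Hcn4 in every P7 library. Rec114 was listed at a mean of 34.6 ± 6.66 CPM of H3K27me3 at P21 (SD, n = 5) and 30.8 ± 15.5 CPM at P7 (SD, n = 5). Its log2 fold change was 0.24 ± 0.28 (SE, edgeR adjusted p 0.479). These values are not read here as the level or change of the mark at that position. H3K4me3 at Rec114 had a log2 fold change of 1.12 ± 0.51 at P21 against P7 (adjusted p 0.0856). Neo1, an axon guidance receptor whose start is 213.66 kb away on the other side, had an H3K27me3 log2 fold change of 1.08 ± 0.59 (adjusted p 0.119) and was lower in H3K4me3 by -0.65 ± 0.23 (adjusted p 0.0294).

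Beside Hcn2 lie Bsg, which encodes the membrane protein basigin, 12.28 kb away, and Polrmt, the mitochondrial RNA polymerase, 29.97 kb away. Both had too few H3K27me3 reads to pass the filter. Bsg averaged 9.98 ± 5.83 CPM at P21 (SD, n = 5) and 7.16 ± 4.49 CPM at P7 (SD, n = 5). In H3K4me3 at P21 against P7, Bsg was lower by -0.86 ± 0.27 (adjusted p 0.0143) and Polrmt had -0.068 ± 0.31 (adjusted p 0.861). Beside Hcn3 lie Pklr, a pyruvate kinase of liver and red cells, 24.04 kb away, and Clk2, a kinase of splicing factors, 4.64 kb away. Pklr had an H3K27me3 log2 fold change of -0.066 ± 0.25 (adjusted p 0.838) and was higher in H3K4me3 by 1.71 ± 0.59 (adjusted p 0.0254). Clk2 was listed at 0 in all 21 libraries.

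Over the 21 libraries, with log2 CPM centred within each mark and 14192 starts searched, the patterns most like that of Hcn2 were those of Paqr9 (Pearson r 0.985), Npas2 (0.985) and Tgfa (0.983). For Hcn4 they were B4galnt3 (0.985), Notum (0.980) and Bmper (0.979). For Hcn3 the best matches were weaker, with Gk5 at 0.713, Dhx40 at 0.711 and Smkr-ps at 0.705. Among the channels, r was 0.890 between Hcn2 and Hcn4, 0.399 between Hcn2 and Hcn3 and 0.440 between Hcn3 and Hcn4. These values describe libraries that share stages, isolation and depth, so they carry no test.

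HCN channels work with partner proteins, with enzymes that make or break down cyclic nucleotides, and with the other conductances that set the resting potential. Lists of these genes were read from the same fits at P21 against P7. Most of the conductances were lower in H3K27me3: of 22 tested, 17 were called lower and 2 higher, with a median log2 fold change of -2.11, where the median of all starts was 0.34. Of all starts, 23.5% were called lower and 25.4% higher in that comparison. The count of conductances called lower ran between 14 and 17 over all alternatives, and that called higher between 0 and 4. Cacna1g (-6.20 ± 0.31, edgeR adjusted p 2.12e-23) and Cacna1i (-4.99 ± 0.30, 2.57e-20) encode T-type calcium channels, which work with HCN channels in rhythmic firing. Kcnk4 (-5.01 ± 0.27, 2.18e-22) and Kcnk12 (-4.87 ± 0.27, 5.76e-22) belong to the K2P family of potassium channels, known for leak current. Kcnk2, a leak channel of the same family (1.04 ± 0.27, 0.00115), and Kcnq5, an M-current subunit (0.64 ± 0.24, 0.0238), were higher.

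H3K4me3 moved the other way at some of these starts. Of 21 conductances tested, 4 were called higher and 1 lower, where 8.98% of all starts were called higher and 14.4% lower, and their median was 0.085 against 0.19 over all starts. Over all alternatives, 2 to 5 were called higher and 0 to 2 lower. Those higher were Kcnj9, a G-protein-gated potassium channel subunit (2.24 ± 0.34, adjusted p 3.99e-08), Cacna1g (1.74 ± 0.29, 5.56e-07), Kcnk12 (0.87 ± 0.24, 0.00537) and Cacna1i (0.95 ± 0.32, 0.0242). All 4 were also called lower in H3K27me3, Kcnj9 with a log2 fold change of -3.05 ± 0.30 (edgeR adjusted p 7.69e-13), whereas Hcn2 and Hcn4 were called in H3K27me3 alone. Kcnj6, also a G-protein-gated subunit, was lower in H3K4me3 (-0.79 ± 0.24, 0.0131). Between P21 and P12, 7 of the 22 conductances were called lower in H3K27me3 and 1 higher, where 3.06% of all starts were called lower and 0.918% higher. Over all alternatives, 5 to 8 were called lower and 0 to 2 higher. In H3K4me3 edgeR and DESeq2 called 0 of the 21 conductances tested between these stages, and 0 had an unadjusted p under 0.05 in edgeR.

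Of 26 adenylyl cyclases, guanylyl cyclases and phosphodiesterases tested in H3K27me3, 15 were called lower and 4 higher at P21 against P7, with a median of -1.05, beside 23.5% lower and 25.4% higher among all starts. Over all alternatives the count called lower ran between 9 and 16 and that called higher between 3 and 10. The calcium-stimulated cyclase Adcy8 (-4.26 ± 0.31, edgeR adjusted p 2.12e-17), the cyclase Adcy5 (-3.06 ± 0.25, 8.47e-16) and the cyclic AMP phosphodiesterases Pde4b (-3.23 ± 0.26, 5.59e-16) and Pde4a (-3.10 ± 0.25, 5.67e-16) had the smallest p among those lower. Higher were Pde5a, which breaks down cyclic GMP (2.68 ± 0.31, 1.60e-10), Pde1a (1.16 ± 0.30, 0.00102), Pde11a (0.74 ± 0.23, 0.00706) and Pde7b (0.67 ± 0.28, 0.0388). In H3K4me3, 1 of 30 was called higher, Pde10a (2.09 ± 0.33, 5.98e-08), and 2 lower, Pde5a (-1.27 ± 0.32, 0.00188) and Pde3a (-0.72 ± 0.24, 0.0240), with a median of 0.031. The shares of all starts in that mark were 8.98% higher and 14.4% lower. Over all alternatives, 1 to 3 were called higher and 0 to 5 lower.

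Of 14 relatives that also have a cyclic nucleotide-binding domain, 7 were called lower and 2 higher in H3K27me3 at P21 against P7, with a median of -0.58, where all starts gave 23.5% lower and 25.4% higher. Over all alternatives, 4 to 7 were called lower and 1 to 7 higher. Those with the smallest p were the EAG family potassium channels Kcnh3 (-3.84 ± 0.25, edgeR adjusted p 5.59e-19), Kcnh1 (-4.05 ± 0.27, 8.31e-19), Kcnh4 (-2.09 ± 0.24, 5.52e-11) and Kcnh6 (-2.003 ± 0.26, 3.65e-09). Kcnh5 of the same family (1.15 ± 0.28, 0.000692) and Cngb3, a subunit of the cone photoreceptor channel (1.27 ± 0.38, 0.00488), were higher. In H3K4me3 3 of 13 were called higher, Kcnh3 (1.33 ± 0.37, 0.00569), Kcnh1 (0.82 ± 0.29, 0.0308) and the olfactory channel subunit Cnga4 (1.42 ± 0.54, 0.0417), and 1 lower, Kcnh8 (-0.91 ± 0.27, 0.00881), with a median of 0.76, and all starts gave 8.98% higher and 14.4% lower. Over all alternatives, 0 to 5 were called higher and 0 to 2 lower.

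Of 9 HCN partner proteins tested in H3K27me3, 3 were called lower and 3 higher at P21 against P7, with a median of -0.0025. These counts stand beside 23.5% of all starts called lower and 25.4% higher. Over all alternatives, 1 to 4 were called lower and 1 to 6 higher. Pex5l, known as TRIP8b, the auxiliary subunit that controls HCN trafficking in neurons, was lower (-1.94 ± 0.25, edgeR adjusted p 1.40e-09), as were the scaffold Grasp, also called tamalin (-1.09 ± 0.28, 0.00108), and the phosphatase Ptpra (-1.41 ± 0.39, 0.00333). Cav3, the caveolin of muscle (1.58 ± 0.29, 8.04e-06), Mrvi1, which modulates Hcn4 (1.303 ± 0.31, 0.000481), and Vapb, a membrane contact site protein (1.37 ± 0.44, 0.00982), were higher. In H3K4me3 2 of 12 were called lower, the actin crosslinker Flna (-1.31 ± 0.29, 0.000283) and Kctd3, a regulator of Hcn3 (-0.83 ± 0.23, 0.00647), and none higher. Of all starts, 14.4% were called lower and 8.98% higher. An unadjusted edgeR p under 0.05 was held by 5 of the 12 and by 8883 of all 20748 starts tested. DESeq2 also called 2 lower and 0 higher, and over all alternatives 1 to 2 were called lower and 0 to 3 higher.

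**Figure D5:**
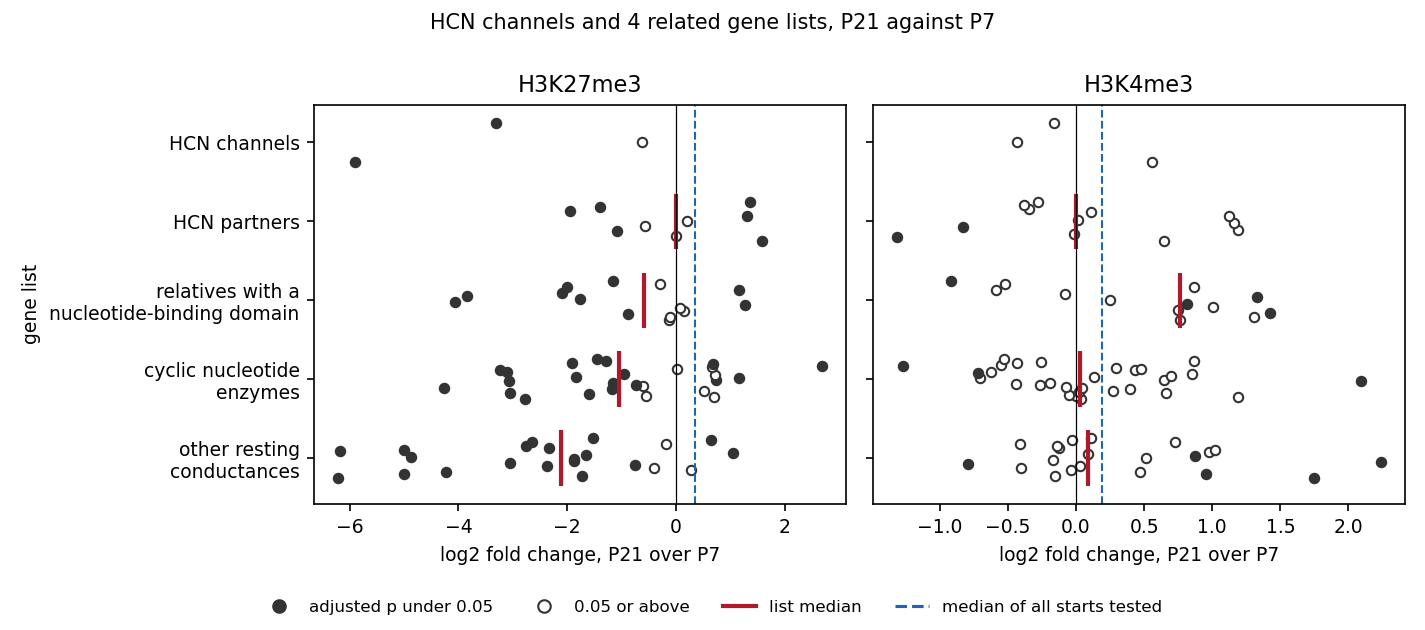
Log2 fold change of each gene of the HCN channels and of 4 related lists at P21 over P7, by mark, with filled points for an edgeR adjusted p under 0.05, red bars for list medians and a dashed line for the median of all starts. In H3K27me3 the median of the other resting conductances is -2.11 and that of all starts 0.34.

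CPM of H3K27me3 also fell at starts of genes that mark other cerebellar cell types, and their part in the results above was not tested. The part of the greater concentration at P7 in this fall was not tested either. Median percentiles at P21 and P7 were 96.7 to 97.5 and 95.7 to 97.8 for GABAergic interneurons and Golgi cells. For oligodendrocytes they were 92.2 to 95.3 and 96.7 to 96.98. For nuclei and unipolar brush cells they were 90.5 to 95.01 and 95.5 to 96.6. Hcn2, a single start rather than a list median, stood at 9.99 to 36.8 at P21 and 93.7 to 96.6 at P7. Single markers within a list also differed. In that of nuclei and unipolar brush cells, the median percentile of Calb2 was 40.2 at P21 and 93.3 at P7. That of Lmx1a was 98.3 at P21 and 99.0 at P7. At P21 against P7 each of 7 marker starts for cerebellar nuclei and unipolar brush cells was called lower, with a summed level of 485 to 976 CPM in P21 libraries and 3046 to 3716 CPM in P7 libraries. Of 7 markers of GABAergic interneurons and Golgi cells 6 were lower and 1 higher (758 to 1547 CPM at P21 and 3419 to 4035 CPM at P7), and of 7 oligodendrocyte markers 5 were lower (516 to 1135 CPM at P21 and 3109 to 3809 CPM at P7). Purkinje cell markers had 2 lower and 2 higher of 6 (316 to 554 CPM at P21 and 1320 to 1538 CPM at P7), and microglia and vessel markers 2 lower and 2 higher of 6 (508 to 863 CPM at P21 and 1853 to 2186 CPM at P7). Progenitor markers had 6 higher and 1 lower of 7 (371 to 873 CPM at P21 and 247 to 352 CPM at P7), astrocyte markers 4 higher and 1 lower of 7 (332 to 692 CPM at P21 and 462 to 612 CPM at P7), and granule cell markers 1 lower of 4 tested (64.3 to 113 CPM at P21 and 132 to 167 CPM at P7). In H3K4me3, the markers for nuclei and unipolar brush cells summed to 186 to 213 CPM in P21 libraries and 173 to 257 CPM in P7 libraries, and those of GABAergic interneurons and Golgi cells to 203 to 250 CPM at P21 and 227 to 289 CPM at P7.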

How the data were processed

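Chromatin from cerebellar granule cells was immunoprecipitated with antibodies to H3K4me3 (Active Motif) or H3K27me3 (CST) and read as 75-bp single-end reads, per the labels' protocols. The authors deposited 1 table of whole-number read counts for each transcription start in 21 ChIP libraries, used here as raw counts, and a peak list for each of 39 libraries, 18 of them inputs. The deposited peak lists carry a score for each peak, which is 0 throughout in the H3K27me3 libraries of replicates 3 and later and their inputs, so intervals were used. The submitters' processing notes name ChIPseeker 1.30.3, HOMER 4.11 and the mm10 build without giving their roles. Aligner, counter and the window around a start: not given in the sources used here. Which library used the TruSeq or the NEBNext kit is not stated either.

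Of 24045 gene numbers, 23992 matched RefSeq on GRCm38.p6 and 53 did not. 6 starts with missing H3K27me3 counts were left out of that mark. Counts were fitted in R 4.3.3 with edgeR 4.0.16 (filterByExpr, TMM, robust quasi-likelihood), all stages of a mark together, with stage for H3K4me3 and stage plus input arrangement for H3K27me3. All 3 channels passed both filters. SE is the absolute log2 fold change over the square root of F. The fits were tested on simulated data, with 200 starts changed by a log2 of 2 at P21. They recovered 153 of these in H3K4me3 and 197 in H3K27me3, with 5 and 9 false calls. Changes as small as those of the channels in H3K4me3 were not simulated, nor was the greater concentration of either mark at P7. The changed starts were drawn from those above a minimum mean count. The figures therefore do not cover sparser starts or a difference in concentration between stages. In H3K27me3, same-numbered libraries of P21 and P12 deviated together from their stage means in all 4 pairs (correlations of 0.35 to 0.65), while pairs with P7 ran between -0.087 and 0.32. Numbers also carry the input arrangement. Among P12 and P21 libraries with an input each, same-numbered pairs correlated at 0.65 (replicate 3) and 0.61 (replicate 4). Other pairs of these libraries lay between -0.19 and 0.31. Among those that share an input, same-numbered pairs correlated at 0.47 and 0.35, and other pairs at 0.37 and 0.51. Whether numbers stand for pairs was not tested, and the main fit held no term for them. With replicate number as a block, H3K27me3 at P21 against P12 had 620 calls, against 719, and no channel's call changed (Hcn2 -2.46, edgeR adjusted p 1.46e-06; Hcn4 -0.86, 0.108). The exact tests of ratios took no account of the numbers. DESeq2 1.42.0 and limma 3.58.1 (loess offsets, span 0.3) served alternatives, and Python 3.11.15 with pandas 2.3.3 and numpy 2.4.6 the rest. Named genes were the channels, up to 4 genes per list, mark and direction with the smallest p among those called at P21 against P7, the nearest protein-coding start on either side, and the 3 most similar patterns. The channels and all lists were chosen with earlier results of these data known. No 2 libraries were alike enough to be copies of 1 library.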

Additional observations from a re-analysis of the deposited data

Results flagged for a closer look

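In 18 groups of 4 or 5 libraries, the H3K27me3 level of each channel and the ratios between channels were searched for a library that stands far from the rest of its group by Dixon's 95% criterion, which chance meets in about 1 of 20 groups. 3 values met it, all of them ratios. The log2 ratio of Hcn2 to Hcn4 in P21 replicate 1 was 0.0, with 1 read at each start, while the other 4 P21 libraries lay between -3.17 and -2.79. The log2 ratio of Hcn4 to Hcn3 in the same library was -2.12, from 1 read and 6 reads, while the others lay between 1.43 and 2.46. The log2 ratio of Hcn2 to Hcn3 in P12 replicate 3 was 1.77, from 90 and 26 reads, while the other 3 P12 libraries lay between 0.37 and 0.50. P21 replicate 1 has the smallest total count of the H3K27me3 libraries, 264093.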

How the results depend on the processing

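Of 491 values of 27 tested results under alternatives, 445 kept direction and side of the threshold, 17 kept direction but no longer passed, 12 newly passed and 17 changed sign; the cause was not tested. In H3K4me3, library totals gave 0.80 for Hcn2 at P21 against P7 and, for Hcn4, 0.075 at P21 and 0.12 at P12 against P7, where trended scaling gave 0.39 and 0.44. The replicate block gave 0.068 for Hcn4 at P12 against P7, and it changed no call of a channel. Same-numbered H3K4me3 libraries correlated at -0.30 to 0.071, and those numbers were not taken as pairs. In H3K4me3 the block gave 1310 H3K4me3 calls at P21 against P7, against 4844, and 680 at P12 against P7, against 3018. With P12 and P21 numbers crossed, an alternative chosen after seeing the data, H3K4me3 again had 0 calls at P21 against P12. In H3K27me3, Hcn4 at P21 against P12 passed with RLE size factors (-1.08), DESeq2 (-1.10), no count filter (-1.03) and only the 2 stages (-1.15). Hcn3 had 0.44 (library totals) and -1.002 (trended) at P21 against P7, and 0.76 (library totals) and 0.042 (only the 2 stages) at P12 against P7. Only replicates 3 and later, too few to pass, gave ratio differences of -2.76 and -1.30 (Hcn2 to Hcn4, P21 and P12 against P7), -5.13, -2.88 and -2.24 (Hcn2 to Hcn3, then P21 against P12), and -2.37 and -1.58 (Hcn4 to Hcn3).

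Leaving out 1 library at a time gave the following ranges. In H3K4me3, Hcn2 ran between 0.13 and 0.86 at P21 against P7, -0.043 and 0.70 at P12 against P7, and -0.073 and 0.30 at P21 against P12. Hcn3 at P21 against P12 ran between -0.45 and 0.38. Hcn4 ran between -0.56 and 0.024 at P21 against P7, -0.33 and 0.084 at P12 against P7, and -0.45 and 0.16 at P21 against P12. In H3K27me3, Hcn4 at P21 against P12 ran between -1.17 and -0.74 and Hcn3 at P21 against P7 between -0.77 and -0.47. The ratio of Hcn2 to Hcn4 ran between -2.88 and -2.09 at P21 against P7, -1.18 and -0.65 at P12 against P7, and -1.95 and -1.10 at P21 against P12. That of Hcn2 to Hcn3 at P12 against P7 ran between -3.63 and -3.05, and that of Hcn4 to Hcn3 between -2.75 and -1.98 there and -1.12 and 0.058 at P21 against P12.

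Without peaks overlapping the input, H3K27me3 peaks were in 3 P7 and 0 P12 libraries at Hcn2, and in 3 P7, 2 P12 and 1 P21 libraries at Hcn4. The peaks at or above the median score, where lists have scores, left 2 P7 and 0 P12 libraries at Hcn2, 0 at Hcn3, and 2 P7, 1 P12 and 0 P21 at Hcn4 in H3K27me3, and in H3K4me3 0 P7 libraries at Hcn2, 1 P7, 0 P12 and 0 P21 at Hcn3, and 1 at each stage at Hcn4.

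Counts over all starts moved too. At P21 against P7, H3K4me3 had 4844 calls, 1334 with trended scaling, 2945 with DESeq2, 3149 with only the 2 stages, and 660 (without P21 replicate 1) to 11444 (without P7 replicate 2). At P12 against P7 the same were 3018, 734, 1859, 1958, and 69 (without P12 replicate 2) to 8191 (without P7 replicate 2). H3K27me3 calls were 8846 and 6592, with library totals 15115 and 13744, and with only replicates 3 and later 4958 and 3043. At P21 against P12 they were 719, with 1212 from DESeq2, 1287 from only the 2 stages, 365 without the input term, 254 from replicates 3 and later and 416 without P12 replicate 3. Of calls at P21 and P12 against P7, 38.5% and 36.7% were higher in H3K4me3 and 52% and 39.6% in H3K27me3, against 63.3%, 61.4%, 83.9% and 84.9% with library totals. RLE gave 50.3% for H3K27me3 and trended scaling 47.7% for H3K4me3 at P12 against P7, and library totals gave 37.6% against 23.1% for H3K27me3 at P21 against P12.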

Other observations

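Clk2, the neighbour of Hcn3 that was listed at 0 in all 21 libraries, shares the position of its annotated start with another gene. Over the table, 66 starts share their exact position with another, and 58 of these (87.9%) are listed at 0 in every library. Among 2942 starts with a neighbour 1 to 500 bases away, the class that holds Hcn4 and Rec114, 108 are listed at 0 (3.67%). Among 15928 starts with no other within 10000 bases, 103 are (0.647%). A value of 0 at such a start is therefore not read here as absence of the mark.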
